A study of Mus musculus with 6 samples.

Results

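The genes described here encode subunits of the SWI/SNF, ISWI and INO80 families of chromatin remodellers, together with a few related SNF2 ATPases. They were chosen by name, as remodeller subunits outside the CHD family, and 36 genes are on the list. Of these, 34 have a probe set annotated to that gene alone, out of 22180 genes named on the array in all, and all 34 passed the filter on low levels. Smarcd3 and Actl6a share their probe set with another gene symbol and are given no value.

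Leukemias of 2 mouse genotypes were compared, with 3 arrays each: Mx1-Cre, Cbfb+/56M, called the control, and Chd7f/f, Mx1-Cre, Cbfb+/56M, called Chd7f/f. Both carry Mx1-Cre, a recombinase driven by an interferon-responsive promoter and not restricted to blood cells, and Cbfb+/56M, an allele that expresses the fusion of Cbfb with MYH11, known from acute myeloid leukemia with inv(16), once it is recombined. Chd7f/f mice also carry a floxed Chd7, itself a gene for a remodelling ATPase of the CHD family. All mice were given pIpC, which induces the recombinase, and the mutagen ENU, so that each leukemia can carry mutations of its own; c-Kit+ cells were sorted from the spleen at the end stage, and the labels give no age for the mice. The samples of a genotype are called independent by the submitters, but not in so many words separate mice, so the spread behind a p-value is that between samples, which may be partly technical. Levels are log2 values from RMA with 1 array per sample, and differences are Chd7f/f minus control. A level of 1 probe set is compared between arrays only, never with the level of another probe set, because probe sets bind with different strength.

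Remodellers use the energy of ATP to slide, evict or restructure nucleosomes. SWI/SNF complexes (BAF, PBAF and non-canonical BAF) are built around one of a pair of alternative ATPases, Smarca4 or Smarca2, and open chromatin at enhancers and promoters; in blood formation Smarca4 is known for a role in stem cells and in leukemia maintenance. ISWI complexes space nucleosomes evenly, INO80 complexes slide nucleosomes, and SWR1 complexes exchange H2A for the histone variant H2A.Z in them. Paralogs often exclude each other from a complex, so their relative expression is one way in which cells tune complex composition.

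The results turn on a few genes, and the 250 bases before the RefSeq start (GRCm38.p6) of 4 of them are shown, 5′ to 3′ on the gene's strand. Hells and Ruvbl2 had the widest ranges among members well above the median level, and Smarca4 and Smarca2 are the alternative SWI/SNF ATPases, which were at their lowest and their highest on the same array. Capitals mark matches on either strand to an E2F motif (TTTCCCGC, TTTCGCGC, TTTGCCGC or TTTGGCGC), an E-box (CACGTG) or a CCAAT box, which do not overlap each other here; a match is a description and not a binding site.
Hells, chr19:38930740-38930989, plus strand: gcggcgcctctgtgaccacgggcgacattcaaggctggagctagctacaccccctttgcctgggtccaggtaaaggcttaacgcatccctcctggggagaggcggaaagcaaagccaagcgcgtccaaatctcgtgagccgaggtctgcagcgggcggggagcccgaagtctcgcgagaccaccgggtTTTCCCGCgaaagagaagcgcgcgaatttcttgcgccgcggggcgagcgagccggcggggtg
Ruvbl2, chr7:45434465-45434714, minus strand: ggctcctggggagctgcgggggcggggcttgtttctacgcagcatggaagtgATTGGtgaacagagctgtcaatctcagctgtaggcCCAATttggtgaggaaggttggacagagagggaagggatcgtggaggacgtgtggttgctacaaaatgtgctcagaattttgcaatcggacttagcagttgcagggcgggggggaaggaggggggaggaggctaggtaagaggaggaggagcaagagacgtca
Smarca4, chr9:21615919-21616168, plus strand: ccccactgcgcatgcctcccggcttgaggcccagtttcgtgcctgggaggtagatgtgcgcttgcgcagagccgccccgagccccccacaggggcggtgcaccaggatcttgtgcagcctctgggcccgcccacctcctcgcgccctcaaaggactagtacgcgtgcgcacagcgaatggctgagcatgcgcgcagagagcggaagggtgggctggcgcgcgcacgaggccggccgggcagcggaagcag
Smarca2, chr19:26604910-26605159, plus strand: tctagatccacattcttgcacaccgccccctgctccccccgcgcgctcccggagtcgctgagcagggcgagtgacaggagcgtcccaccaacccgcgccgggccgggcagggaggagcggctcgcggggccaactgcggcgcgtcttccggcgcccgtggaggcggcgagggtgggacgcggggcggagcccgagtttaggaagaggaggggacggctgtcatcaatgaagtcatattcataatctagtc
Hells has 1 E2F match, TTTCCCGC, which begins 62 bases before the start. Ruvbl2 has 2 CCAAT matches, at 198 and 163 bases before the start, and the windows of Smarca4 and Smarca2 hold none of these letters. RefSeq windows were found for 33 of the 36 genes. An E2F match occurs in 4 of the 33 genes (Arid1a, Brd7, Hells and Smarcd1) and in 1.86% of all 32851 windows of this length. An E-box occurs in 2 genes (Bptf and Pbrm1) and in 6.02% of windows, and a CCAAT box in 11 genes and in 33.85% of windows. A gene counts with a match in any of its windows, and Arid1a, Brd9 and Smarcad1 have more than 1. Counts of genes and shares of windows are thus not in the same unit.

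Kit, which encodes the receptor used for sorting, had levels of 11.72, 12.12 and 11.68 on the control arrays and 12.48, 11.69 and 11.90 on the Chd7f/f arrays. Chd7, the targeted gene, had levels of 6.17, 7.54 and 5.32 on control arrays and 5.48, 6.50 and 5.91 on Chd7f/f arrays, so the genotypes overlapped (difference -0.38, SE 0.58, limma, adjusted p = 0.9998; 0.22 without control replicate 2). Neither the deleted exons nor the positions of the Chd7 probes are known from the labels, and the level of this probe set is no check of the deletion. On 1 array, control replicate 2, the level of Xist (10.08) was that of a female sample, while the remaining arrays had 3.88 or less.

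No remodeller gene passed the test between the genotypes. At an adjusted p under 0.05 the count was 0 of 34 members (limma over 15526 genes, Benjamini-Hochberg), against 0 genes, or 0%, of all those tested. At an unadjusted p under 0.05 the count was also 0 of 34, where 1.84% of all tested genes passed. The 3 values of one genotype lay apart from the 3 of the other in 0 of 34 members and in 6.81% of all tested genes. Differences ran from -0.53 for Hells to 0.33 for Baz2a, with 13 members higher and 21 lower in Chd7f/f leukemias; leaving out Chd7f/f replicate 1 gave 17 of each, and leaving out control replicate 1 gave 19 higher and 15 lower. The sign turned for 12 members without the former array, for 10 without the latter and for 4 without any 1 of the others. Of all tested genes, 6785 were higher and 8741 lower. The median difference of the members was -0.029, and over all tested genes it was -0.027.

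The arrays bound these differences more tightly for some members than for others. The 95% interval of the difference stayed within 1 log2 in either direction, a change of less than 2-fold, for 31 of the 34 members. It reached beyond that for Hells (-1.99 to 0.93), Ruvbl2 (-1.30 to 0.67) and Smarca1 (-0.92 to 1.43). For Ino80, Srcap, Arid1a, Arid2, Brd7 and Atrx the intervals ended between -0.45 and 0.34. The difference was smaller than the larger of the 2 within-genotype SDs for 32 members, the exceptions being Smarca4 and Dpf2.

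**Figure D1:**
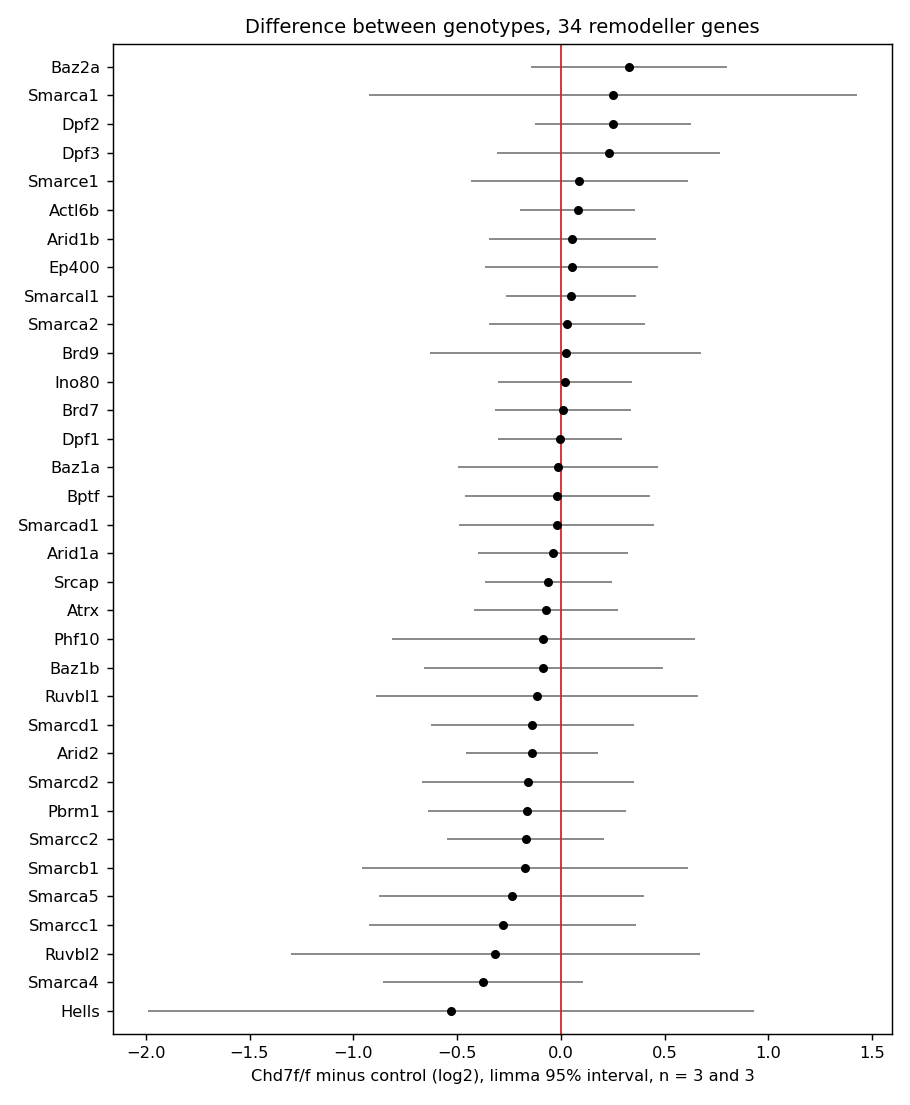
Chd7f/f minus control difference in log2 RMA level (horizontal axis) of each of the 34 measured remodeller genes, ordered by size; points are limma estimates and lines their 95% intervals, with 3 arrays per genotype. Every interval includes 0, and Hells, Smarca1 and Ruvbl2 have the widest.

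The alternative ATPases of SWI/SNF did not move together. Smarca4 (BRG1) was at 9.95, 9.67 and 10.03 on the control arrays and at 9.14, 9.76 and 9.62 on the Chd7f/f arrays. Its lowest value was that of Chd7f/f replicate 1, and Chd7f/f replicate 2 lay above control replicate 2. The difference of -0.37 (SE 0.20, 95% interval -0.86 to 0.11) had the smallest unadjusted p of the members at 0.108 (limma, adjusted p = 0.9998). Leaving out Chd7f/f replicate 1 gave -0.19. Smarca2 (BRM) was at 9.90, 9.90 and 9.83 in the control and at 10.19, 9.69 and 9.84 in Chd7f/f leukemias, with the highest value on the array where Smarca4 was lowest. Its difference was 0.03 (SE 0.15), and -0.11 without Chd7f/f replicate 1.

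Among the core subunits, which hold the complex together, Chd7f/f replicate 1 was the lowest array for 4 of the 7 measured. That array was the lowest for 27.7% of all tested genes. Smarcb1 (SNF5), a tumour suppressor that contacts the nucleosome's acidic patch, was at 8.87, 8.83 and 9.17 in the control and at 8.05, 9.17 and 9.15 in Chd7f/f leukemias. A single array was thus low, 0.78 under the nearest other, and the difference of -0.17 (SE 0.32) turned to 0.20 without it. The scaffold gene Smarcc1 (BAF155) was at 10.05, 9.45 and 9.53 against 8.91, 9.69 and 9.59, a difference of -0.28 (SE 0.26) that was -0.039 without Chd7f/f replicate 1. The other scaffold, Smarcc2 (BAF170), and the D subunit Smarcd2 were lowest on the same array, at 9.23 and 6.75, with differences of -0.17 and -0.16, the latter 0.045 without that array. Smarcd1, the other D subunit measured, ran from 7.64 to 8.17 and was lowest in Chd7f/f replicate 3. A second Smarcd1 probe set gave a difference of 0.06 where the first gave -0.14. Smarce1 (BAF57), an HMG-box subunit, was at 8.18, 7.55 and 7.48 in the control and at 7.88, 7.95 and 7.65 in Chd7f/f leukemias. Its Chd7f/f values lay between control values, and the difference of 0.09 (SE 0.22) was -0.0029 without control replicate 2 and -0.038 without control replicate 3. Actl6b, the actin-related subunit known from neurons, stayed between 4.24 and 4.49, below the median of 4.77 over all probe sets, and may lie near background.

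The subunits that define BAF had a median range of 0.49 over the arrays, against 0.64 for all members and 0.57 for all tested genes. Dpf2, a PHD-finger protein that reads histone H3, was at 10.08, 10.54 and 10.46 in the control and at 10.62, 10.69 and 10.52 in Chd7f/f leukemias. Control replicate 1 was the low one, and the difference of 0.25 (SE 0.16, 95% interval -0.13 to 0.63) was 0.11 without it. Dpf3, a relative known from heart and muscle, was at 7.29, 6.62 and 6.94 against 7.49, 7.03 and 7.02, with 1 control value inside the Chd7f/f range and a difference of 0.23 (SE 0.22). Leaving out control replicate 2 brought it to 0.067 and leaving out control replicate 1 to 0.40. Dpf1 stayed between 5.30 and 5.54, less than 1 log2 above the median over all probe sets. The DNA-binding subunits Arid1a and Arid1b had differences of -0.039 and 0.056. The first was 0.068 with control replicate 1 left out and the other -0.097 with Chd7f/f replicate 1 left out; Arid1b was highest in Chd7f/f replicate 1 at 10.08.

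PBAF and non-canonical BAF subunits were more uneven. Chd7f/f replicate 1 was lowest for 3 of the 5, and Chd7f/f replicate 2 was highest for 3. Among all tested genes the shares were 27.7% and 17.6%. Brd9, the bromodomain subunit of non-canonical BAF, was at 8.18, 8.38 and 8.40 in the control and at 7.84, 8.89 and 8.30 in Chd7f/f leukemias. The 2 outermost values both belonged to Chd7f/f arrays, and the genotypes differed by 0.025 (SE 0.27), which was 0.28 without the first and -0.25 without the second of these arrays. Phf10 (BAF45A) showed the same order, at 9.06 in Chd7f/f replicate 1 and 10.16 in Chd7f/f replicate 2 with the control between 9.45 and 9.92. Its other probe set, with a mean of 4.75, gave a difference of -0.57 where this one gave -0.08, or 0.22 without Chd7f/f replicate 1. The bromodomain scaffold Pbrm1 was lowest in Chd7f/f replicate 1, at 9.23, and had a difference of -0.16. Arid2 and Brd7 varied least in this group, with ranges of 0.41 and 0.31 over the 6 arrays.

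**Figure D2:**
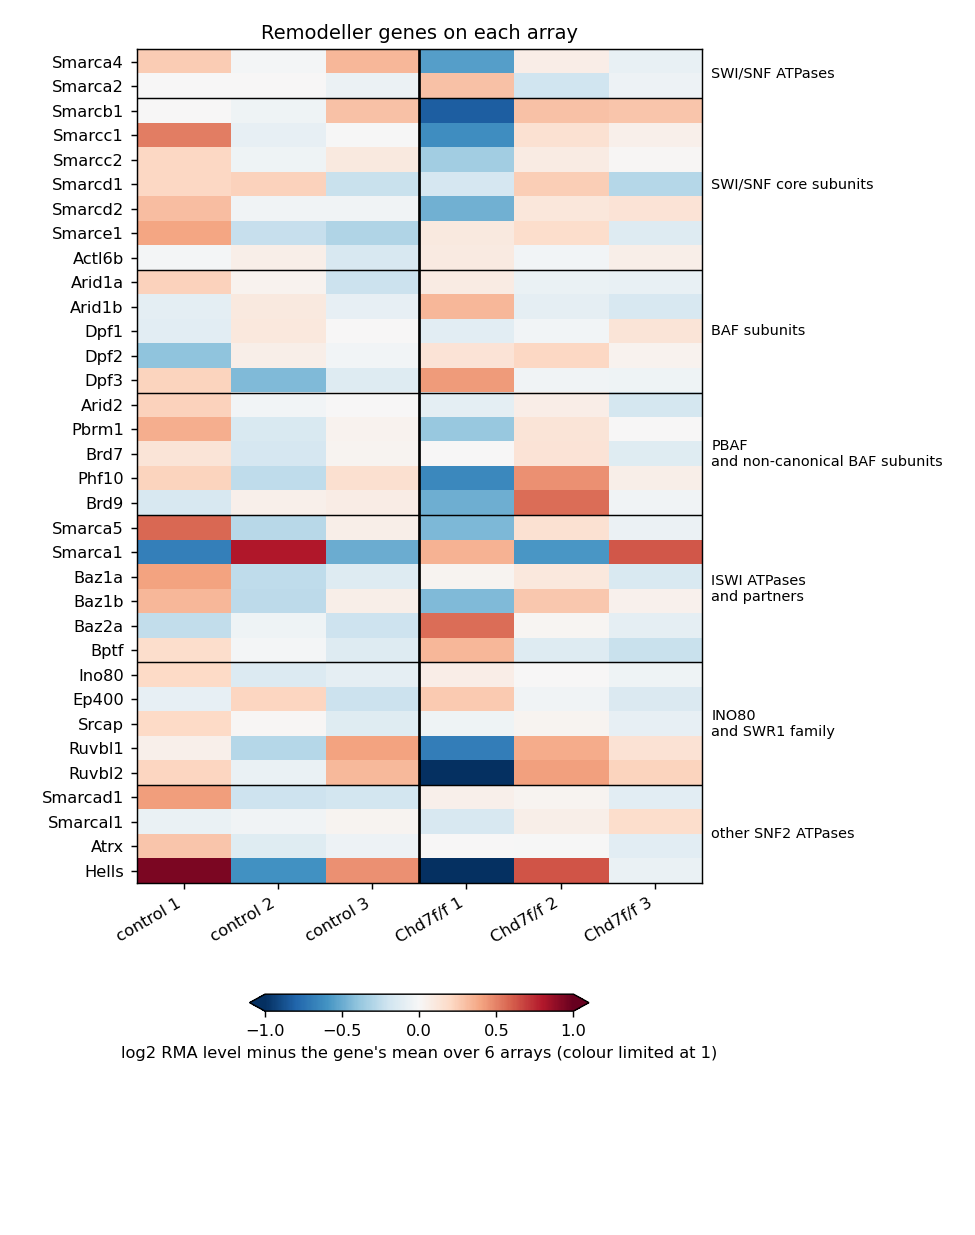
Level of each of the 34 measured remodeller genes (rows, grouped by complex) on each of the 6 arrays (columns), as log2 RMA level minus the gene's mean over the arrays; red is above and blue below the mean, and colours stop at 1. The column of Chd7f/f replicate 1 holds both the lowest values (14 genes) and several of the highest (7 genes).

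In the ISWI family the ATPases and their partners took different courses. Smarca5 (SNF2H), the ISWI ATPase known for its role in blood progenitors, was at 9.74, 8.88 and 9.22 in the control and at 8.71, 9.32 and 9.10 in Chd7f/f leukemias. The highest value was that of control replicate 1 and the lowest that of Chd7f/f replicate 1, and the difference of -0.24 (SE 0.26) was -0.0090 without control replicate 1. Smarca1 (SNF2L), its X-linked paralog known from neurons, was at 3.72, 5.20 and 3.90 in the control and at 4.75, 3.82 and 5.02 in Chd7f/f leukemias. High and low arrays occurred in both genotypes, control replicate 2 being also the array with Xist, and no value reached 5.77, which is 1 log2 over the median of all probe sets. The difference of 0.25 (SE 0.48) was -0.025 without control replicate 1. Atrx, the other X-linked member and a heterochromatin ATPase, was lowest in control replicate 2, at 8.99 against 9.01 to 9.40 elsewhere.

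Baz2a (TIP5), which pairs with Smarca5 to silence ribosomal DNA, had the largest higher value. It was at 8.54, 8.75 and 8.58 in the control and at 9.35, 8.81 and 8.70 in Chd7f/f leukemias. Chd7f/f replicate 1 stood 0.54 above the next array, and the other Chd7f/f values lay on either side of control replicate 2. The difference of 0.33 (SE 0.20, 95% interval -0.14 to 0.80; limma, adjusted p = 0.9998) was 0.13 without that array. Bptf, the largest NURF subunit, was also highest in Chd7f/f replicate 1, at 9.14, while Baz1b (WSTF) was lowest there, at 8.90. Baz1a (ACF1) ran from 9.46 to 10.11 and was highest in control replicate 1.

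The AAA+ ATPases Ruvbl1 and Ruvbl2, which form a ring shared by INO80, SRCAP and Ep400 complexes, gave the widest spread in the INO80 group. Ruvbl2 was at 9.01, 8.72 and 9.12 in the control and at 7.68, 9.20 and 9.01 in Chd7f/f leukemias. Chd7f/f replicate 1 was 1.04 below the nearest other array, the largest such gap among the members, and the difference of -0.32 (SE 0.41) turned to 0.16 without it. Ruvbl1 had 7.79 on that array and 8.20 to 8.89 on the others. Of the large ATPases that the ring joins, Ino80 was at 8.86 on that array, above 4 of the other 5, and Srcap at 9.15 (9.08 to 9.40 elsewhere). Ep400 was at 10.44 there by the probe set used (9.97 to 10.40 elsewhere). Its other probe set was lowest on that array, at 9.40 (9.47 to 9.94 elsewhere). Without that array the difference of Ruvbl1 was 0.20 and that of Ep400 -0.065. The 2 probe sets of Ep400 differed in sign between genotypes, at 0.052 and -0.13.

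Hells (LSH), an SNF2 ATPase needed for DNA methylation and known to be high in dividing lymphoid and progenitor cells, had the widest range of all members, 2.30 log2. It was at 8.94, 7.39 and 8.46 in the control and at 6.64, 8.63 and 7.93 in Chd7f/f leukemias. Both genotypes held a low array, control replicate 2 and Chd7f/f replicate 1, and the difference of -0.53 (SE 0.60, limma, adjusted p = 0.9998) was 0.018 without Chd7f/f replicate 1. The other ATPases outside the large complexes moved less: Smarcad1 ranged over 0.62, Atrx over 0.41 and Smarcal1, an annealing helicase of stalled replication forks, over 0.34.

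**Figure D3:**
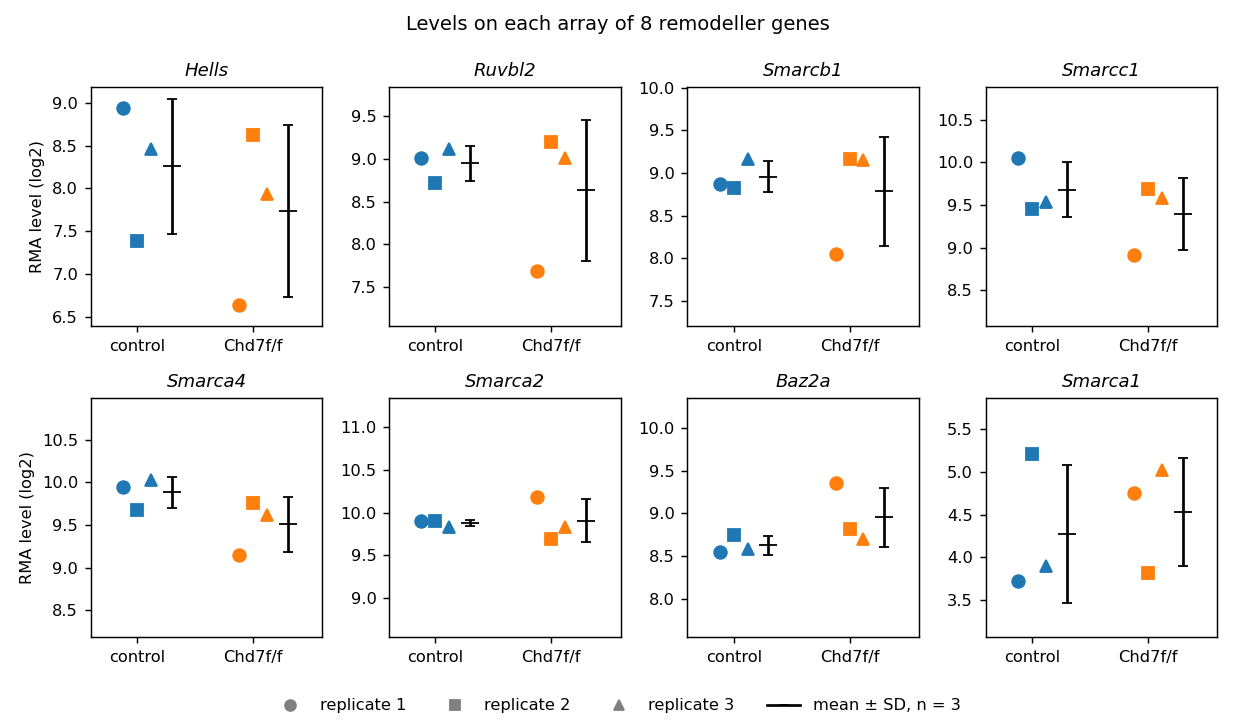
RMA level (log2, vertical axes, each spanning 2.8) of 8 remodeller genes on the control (blue) and Chd7f/f (orange) arrays, with the symbol giving the replicate and bars giving mean and SD of 3 arrays. In Chd7f/f replicate 1 (orange circle) Hells, Ruvbl2, Smarcb1, Smarcc1 and Smarca4 are at their lowest and Smarca2 and Baz2a at their highest.

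Across the members, the arrays of Chd7f/f replicate 1 and of control replicate 1 stood out more than the genotype did. Chd7f/f replicate 1 was the lowest of the 6 arrays for 14 of 34 members (41.2%), against 27.7% of all tested genes. It was the highest for 7 members (20.6%), against 18.7% of all tested genes. The 14 were Smarca4, Smarcb1, Smarcc1, Smarcc2, Smarcd2, Pbrm1, Phf10, Brd9, Smarca5, Baz1b, Ruvbl1, Ruvbl2, Smarcal1 and Hells, and the 7 were Smarca2, Actl6b, Arid1b, Dpf3, Baz2a, Bptf and Ep400. The other probe set of Ep400 was lowest on that array, at 9.40. Control replicate 1 was the highest array for 15 members (44.1%), against 24.4% of all tested genes. These shares describe the arrays and were not tested.

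Chd7f/f replicate 1 also had the lowest mean level of genes of cell division, and control replicate 1 the highest mean level of erythroid genes. The mean level of 25 measured of 28 DNA replication genes was 7.37 in Chd7f/f replicate 1, 9.18 and 9.06 on the other Chd7f/f arrays and 9.32, 8.70 and 9.09 in the control. For 18 measured of 20 mitosis genes it was 7.31 in Chd7f/f replicate 1, 9.61 and 9.40 on the other Chd7f/f arrays and between 8.93 and 9.45 in the control. The 6 measured of 12 erythroid markers had mean levels of 8.96 to 10.84 in the control, highest in control replicate 1, and of 8.40 to 9.95 in Chd7f/f leukemias, lowest in replicate 1. Slc4a1, Tfrc, Rhag and Ermap were highest in control replicate 1. Klf1 was highest in control replicate 3, at 10.47, and Epor in Chd7f/f replicate 2, at 8.99. Hells and Ruvbl2 were thus lowest on the array where replication genes were lowest; the part of cell division or of erythroid cells in the members' values was not tested. In bulk RNA, fewer cells of a type and less RNA per cell cannot be told apart.

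Markers of other cell types are given for the same arrays. Mean levels of 10 measured of 12 T and NK cell markers were 4.38 to 4.62 in the control and 4.44 to 4.58 in Chd7f/f leukemias, below the median over all probe sets. Those of 8 measured of 9 B cell markers were 5.41 to 5.78 and 4.94 to 5.53, those of 11 neutrophil markers 4.29 to 4.77 and 4.44 to 5.48, and those of 12 monocyte and macrophage markers 5.44 to 6.24 and 5.86 to 6.88. Of the monocyte and macrophage markers 10 were higher and 2 lower in Chd7f/f leukemias (mean difference 0.54). Of the neutrophil markers 10 were higher and 1 lower (0.26). Of the B cell markers 1 was higher and 7 lower (-0.24), and of the T and NK cell markers 6 and 4 (0.033). The array means of the genotypes overlapped for each of these lists. Means over a list hide single genes. Mpeg1, of the monocyte and macrophage list, was at 5.14 to 5.57 in the control and at 5.67 to 7.08 in Chd7f/f leukemias. Its difference was 1.12 (limma, unadjusted p = 0.0258, adjusted p = 0.9998). Ly6g, of the neutrophil list, was also higher without overlap, at a mean of 4.23 and a difference of 0.30. The other markers of these lists overlapped between the genotypes. Nkg7, of the T and NK cell list, ran from 6.51 to 7.96. Ighm, of the B cell list, ran from 9.30 in Chd7f/f replicate 2 to 12.24 in Chd7f/f replicate 1. The mean level of the 8 mast cell markers was 9.18, 9.73 and 9.84 in the control and 9.998, 9.43 and 9.79 in Chd7f/f leukemias. It was lowest in control replicate 1 and highest in Chd7f/f replicate 1. Single markers differed: Ms4a2, Fcer1a and Hdc were lowest in control replicate 1, Mcpt8 and Gata2 in control replicate 2. Cpa3 was lowest in control replicate 3, and Cma1 and Tpsb2 in Chd7f/f replicate 2. Hdc was highest in Chd7f/f replicate 2, Tpsb2 in control replicate 2 and the others in Chd7f/f replicate 1. The part of these markers in the members' values was not tested. RMA levels have no zero, so no marker can be called absent from them.

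**Figure D4:**
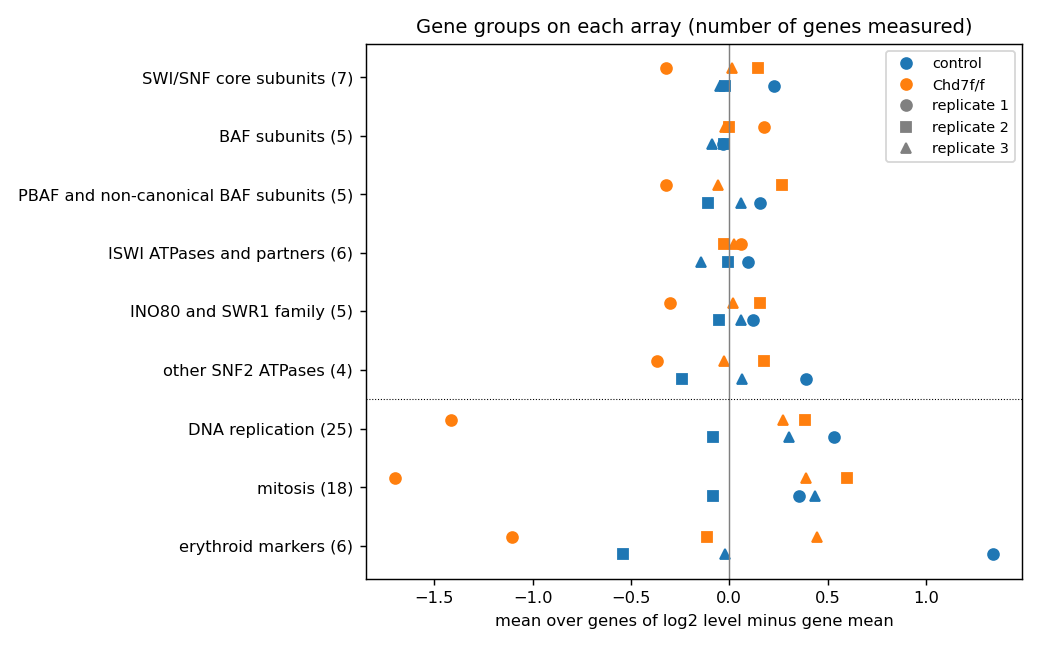
Mean over the measured genes of a group of log2 RMA level minus the gene's own mean over 6 arrays (horizontal axis), for 6 groups of remodeller genes (above the dotted line) and 3 comparison lists (below), with control arrays in blue, Chd7f/f arrays in orange and the replicate as symbol. Chd7f/f replicate 1 is lowest for SWI/SNF core, PBAF, INO80 and other SNF2 genes and for all 3 comparison lists, and highest for BAF subunits.

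Paralog choice was compared through the log2 difference of 2 paralogs on the same array, whose zero has no meaning but whose change between arrays does. Of 14 pairs listed, 11 could be measured. The values of the genotypes overlapped for each of the 11, and no exact two-sided permutation p was under 0.3, where 3 against 3 arrays cannot give less than 0.1 (Benjamini-Hochberg adjusted p = 1 for each). Smarca4 minus Smarca2 was 0.049, -0.22 and 0.20 in the control and -1.04, 0.069 and -0.22 in Chd7f/f leukemias. The shift was thus that of replicate 1, in which Smarca4 was relatively low; the difference between genotypes was -0.40 (exact permutation p = 0.5) and -0.079 without that array. Ruvbl1 minus Ruvbl2 was 0.11 in Chd7f/f replicate 1, while the other 5 arrays had -0.52 to -0.23, so Ruvbl2 was the more reduced of the ring's subunits there. Baz1a minus Baz1b was 0.83 on that array and 0.17 to 0.44 elsewhere.

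Over the 11 pairs, Chd7f/f replicate 1 was the lowest array for 4 and the highest for 5. Smarca5 minus Smarca1 had the widest range, 2.34, to which both genes contributed: it was 6.02, 3.68 and 5.32 in the control and 3.97, 5.50 and 4.08 in Chd7f/f leukemias. Smarca1 had a mean of 4.40, below the median over all probe sets, and may lie near background. Dpf2 minus Dpf3 was lowest in control replicate 1, at 2.79, and highest in control replicate 2, at 3.92. Dpf2 minus Dpf1 gave the smallest p of the pairs, with means of 4.95 ± 0.15 on control arrays and 5.20 ± 0.19 on Chd7f/f arrays (SD, n = 3 each; exact permutation p = 0.3). Its difference between genotypes, 0.25, was that of Dpf2 (0.25), while Dpf1 differed by -0.0017. Smarcc1 minus Smarcc2 and Arid1a minus Arid1b both ranged over 0.58, highest in control replicate 1 and lowest in Chd7f/f replicate 1. Arid2 minus Arid1a, which sets a PBAF subunit against a BAF subunit, had the narrowest range at 0.40. Brd7 minus Brd9 was 1.87 in Chd7f/f replicate 1 and 0.95 in Chd7f/f replicate 2, the highest and the lowest of the 6.

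**Figure D5:**
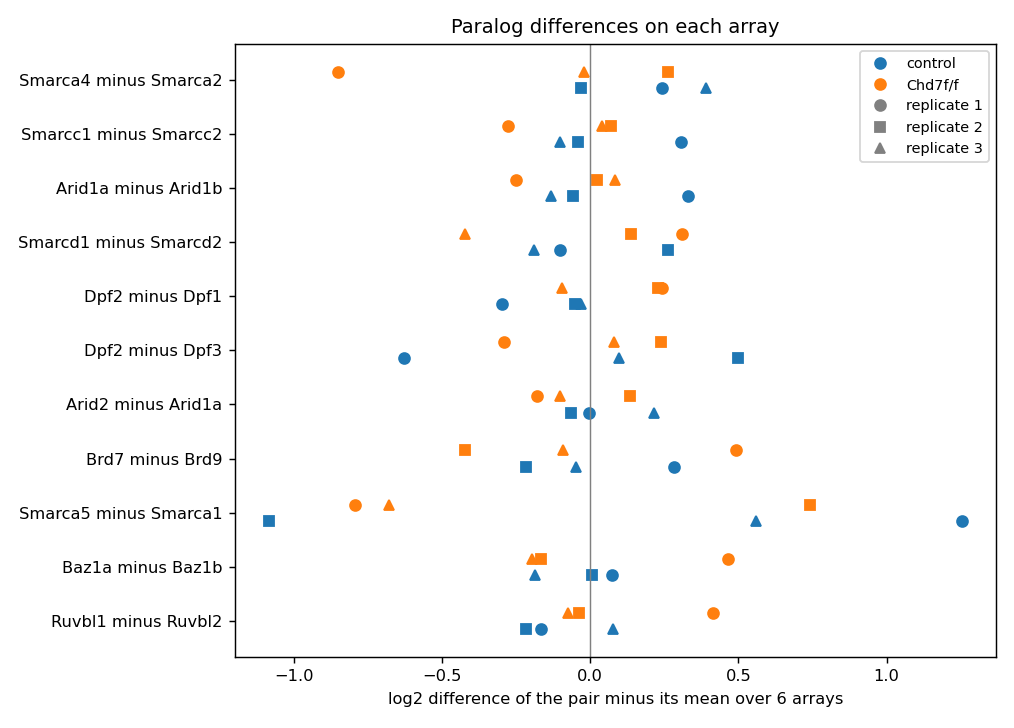
Log2 difference of 11 paralog pairs on each array, minus the pair's mean over the 6 arrays (horizontal axis), for control (blue) and Chd7f/f (orange) leukemias with the replicate as symbol. Control and Chd7f/f values overlap in every pair, and Chd7f/f replicate 1 stands apart for Smarca4 minus Smarca2.

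Of 52 further genes of remodeller complexes, such as the remaining INO80, TIP60 and SRCAP subunits, 49 were measured and tested. The count was 0 of 49 at an adjusted and 0 of 49 at an unadjusted p under 0.05 (limma), where 0% and 1.84% of all tested genes passed. The values of the genotypes overlapped for each of the 49, while they lay apart in 6.81% of all tested genes. Of the 49, 16 were higher and 33 lower, against 6785 and 8741 of all tested genes. Their median difference was -0.037, and that of all tested genes -0.027. Zranb3, a translocase of stalled replication forks, and Ttf2, a transcription termination ATPase, had the lowest differences at -0.40 and -0.28, which shrank to -0.13 and -0.070 without Chd7f/f replicate 1. Cecr2, an ISWI partner close to background at a mean of 4.20, and Ino80d had the highest at 0.25 and 0.17, the latter -0.033 without Chd7f/f replicate 1. Cecr2 passed an unadjusted p of 0.05 with array weights (0.36, limma, unadjusted p = 0.0393) and without control replicate 1 (0.39, limma, unadjusted p = 0.0432), and 0 passed it in the other alternatives, of 49 tested, or 47 with the filter at the 50th percentile. Cdca7, the partner that brings Hells to nucleosomes, was named after its values were seen: it was at 10.20, 9.23 and 9.89 in the control and at 8.80, 10.24 and 9.74 in Chd7f/f leukemias. Its 2 lowest arrays, Chd7f/f replicate 1 and control replicate 2, were those of Hells, and its difference was 0.22 with the first left out. The same arrays had the lowest mean levels of DNA replication genes, at 7.37 and 8.70, and of mitosis genes, at 7.31 and 8.93. This order was thus not particular to Cdca7 and Hells. Chd7f/f replicate 1 was the lowest array for 18 of the 49 (36.7%), against 27.7% of all tested genes. Control replicate 1 was the highest for 18 (36.7%), against 24.4% of all tested genes.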

How the data were processed

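The deposited values are RMA levels per probe set on the log2 scale, made by the authors in Affymetrix Expression Console according to the submitters' processing notes; versions, settings and the genome build are not stated there. RMA equalises the distributions of arrays, so differences in total signal are lost. The log base rests on the method and on a range of 1.78 to 13.5. The design text gives a mouse array and the labelling protocol a human one; the annotated genes are mouse genes.

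Of 41345 probe sets, 23521 carry 1 gene symbol, 1814 several and 16010 none. Symbols were updated through RefSeq (GRCm38.p6), where 21994 of 22180 genes were found. The probe set with the highest mean stood for its gene, and genes from the 30th percentile of means upward (4.13) were tested. Limma 3.58.1 (R 4.3.3; lmFit and eBayes without covariates) compared the genotypes over 15526 genes with Benjamini-Hochberg adjustment, and exact permutation over samples the paralog differences. Values per array are given for members with the 5 highest or 5 lowest differences or the 5 widest ranges, for any past an unadjusted p of 0.05 or without overlap, and for paralogs discussed. Of the further genes the 2 highest and 2 lowest are named. Members and lists were chosen with earlier results of these data known. The steps were tested on simulated data. Alternatives were another normalization, centring, filters, the mean of probe sets, another prior, array weights, the replicate block and leaving out each array.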

Additional observations from a re-analysis of the deposited data

How the results depend on the processing

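At an adjusted p under 0.05 the limma count was 0 of all tested genes and 0 members under each of the 14 alternatives, and 0 members passed an unadjusted p of 0.05 under any of them. The count of all tested genes at an unadjusted p under 0.05, 286, was 530 with no filter and 159 with a filter at the 50th percentile, which change how many genes are tested, 571 with array weights, and 272 to 481 when 1 array was left out; the last was without control replicate 2, and the cause was not tested. The replicate numbers do not pair the samples: deviations of same-numbered arrays correlated at 0.027, -0.025 and 0.034, and not every array correlated best with its own number. With the replicate number as a block 332 genes and 0 members had an unadjusted p under 0.05.

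The median difference of the members stayed between -0.077 and 0.023 without 1 array, and between -0.050 and -0.0048 under the other alternatives. With array weights the sign of some members turned, at -0.022 for Smarca2, 0.012 for Smarcb1, 0.038 for Smarcd2, 0.0080 for Arid1a, -0.053 for Arid1b, 0.057 for Dpf1, -0.039 for Brd7, 0.019 for Phf10, 0.027 for Baz1b, -0.0045 for Ep400 and 0.021 for Smarcad1. Dpf1 was at 0.011 with quantile normalization and 0.0064 with median centring, and Ep400 at -0.037 with the mean of probe sets; causes were not tested. Leaving out 1 array gave -0.11 to 0.14 for Smarca2, -0.36 to 0.20 for Smarcb1, -0.26 to 0.045 for Smarcd2, -0.038 to 0.31 for Smarce1, -0.16 to 0.068 for Arid1a, -0.097 to 0.15 for Arid1b, -0.067 to 0.052 for Dpf1, -0.069 to 0.078 for Brd7, -0.34 to 0.22 for Phf10, -0.25 to 0.28 for Brd9, -0.025 to 0.72 for Smarca1, -0.14 to 0.18 for Baz1a, -0.24 to 0.11 for Baz1b, -0.19 to 0.090 for Bptf, -0.046 to 0.13 for Ino80, -0.065 to 0.17 for Ep400, -0.14 to 0.024 for Srcap, -0.33 to 0.20 for Ruvbl1, -0.60 to 0.16 for Ruvbl2, -0.13 to 0.18 for Smarcad1, -0.028 to 0.14 for Smarcal1, -0.15 to 0.052 for Atrx, -0.98 to 0.018 for Hells, -0.89 to 0.22 for Chd7, -0.041 to 0.36 for Kit, -0.033 to 0.32 for Ino80d and -0.50 to 0.22 for Cdca7. Among paralog pairs it gave -0.19 to 0.014 for Smarcc1 minus Smarcc2, -0.18 to 0.047 for Arid1a minus Arid1b, -0.13 to 0.24 for Smarcd1 minus Smarcd2, -0.29 to 0.27 for Dpf2 minus Dpf3, -0.26 to 0.19 for Brd7 minus Brd9, -1.15 to 0.016 for Smarca5 minus Smarca1 and -0.15 to 0.19 for Baz1a minus Baz1b. Of the 34 members 11 kept their direction in each of the 14 alternatives and 23 did not, 12 of them turning without Chd7f/f replicate 1; Smarca4, Baz2a, Dpf2 and Dpf3 are among those that kept it. With 3 arrays per genotype, intervals of Hells, Ruvbl2 and Smarca1 do not exclude a 2-fold change.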
